A study of Mus musculus with 38 samples.

Results

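The effect of lactic acid on inflammatory macrophages was measured at 16 h, by setting 4 RNA libraries of stimulated cells that had received lactic acid against 4 libraries of stimulated cells that had not. These 8 samples were chosen by their labels, from 38 samples in all. The cells were bone marrow-derived macrophages of C57BL/6 mice, grown out of marrow precursors. Both groups received 5 ng/ml of lipopolysaccharide (LPS) together with 12 ng/ml of interferon-gamma (IFNg), the stimuli that drive macrophages toward the inflammatory M1 state, and were harvested 16 h later. In one group lactic acid followed these stimuli after 4 h, so that the cells spent 12 h in it. The labels state neither its dose nor a control for the acid. They do not say whether the 4 libraries of a group came from separate mice or cultures, so p-values here measure the spread between libraries only, which may be technical.

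Macrophages that respond to LPS and IFNg take up glucose, run glycolysis and release lactate. They switch on cytokine and chemokine genes within hours, and many of these are shut off again by feedback inhibitors. Lactate is carried across membranes by proton-linked transporters, is exchanged with pyruvate by lactate dehydrogenase, is sensed by some surface receptors and can be attached to histone lysines as a lactyl mark. Lactic acid also carries protons, so its addition can change both the lactate and the acidity outside the cell.

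Expression was read as RPKM, in which read counts are divided by the length of the gene and the size of the library. Of the listed genes, 9942 reached the expression minimum and were tested, and 1242 lay below it. Fold changes are given as log2 differences of RPKM + 1, which understate the change of genes with low values, and a gene was called higher or lower at a Benjamini-Hochberg adjusted p under 0.05 in limma. Depth, as reads in the genes of the table, was 76.3 to 92.8 M per library without lactic acid and 61.5 to 88.9 M with it. On the first principal component of the 8 libraries, which took up 84.5% of the variance, the groups did not overlap (-23.5 to -5.93 without and 11.4 to 20.3 with lactic acid). The library of replicate 4 without lactic acid lay nearest to the treated libraries. Markers of macrophages were abundant (20 of 20 tested, with a summed level of 28268 to 40019 RPKM without and 22051 to 26513 with lactic acid). The largest part of this sum came from the lysozyme gene Lyz2. The median of the members' means was 363 RPKM without and 314 RPKM with lactic acid. Among 15 markers of neutrophils and their precursors, 7 were in the table (summed 68.5 to 83.7 RPKM without and 54.2 to 66.3 with) and 6 tested. The table held 7 of 12 dendritic cell markers (1377 to 1593 and 1150 to 1250 RPKM, nearly all of it from the interferon-stimulated gene Bst2), 3 of 18 lymphocyte markers (15.7 to 18.7 and 14.0 to 16.7 RPKM) and 9 of 14 stromal and endothelial markers (5.14 to 6.63 and 6.34 to 7.78 RPKM). It lists none of 14 erythroid and mast cell markers.

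Lactic acid changed many genes by a little and a few by a lot. Of the tested genes, 2999 (30.2%) were higher and 3081 (31.0%) were lower with lactic acid at 16 h, and the median over all of them was -0.01. Without the library of replicate 4 in the group that had no lactic acid the counts were 3088 and 3158. In 2825 genes (28.4%) all 4 treated libraries lay above all 4 untreated ones, and in 2831 (28.5%) below. Changes of at least 2-fold on the log2(RPKM + 1) scale were rare, with 20 genes higher (0.201%) and 6 lower (0.0604%). These 2 counts depended on the scale. They were 79 and 34 with RPKM + 0.1, and 10 and 1 with RPKM + 5. With limma-voom on whole reads recovered from the RPKM values they were 118 and 65. The largest rises were those of genes that include those for nitric oxide synthase and prostaglandin synthesis.

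**Figure D1:**
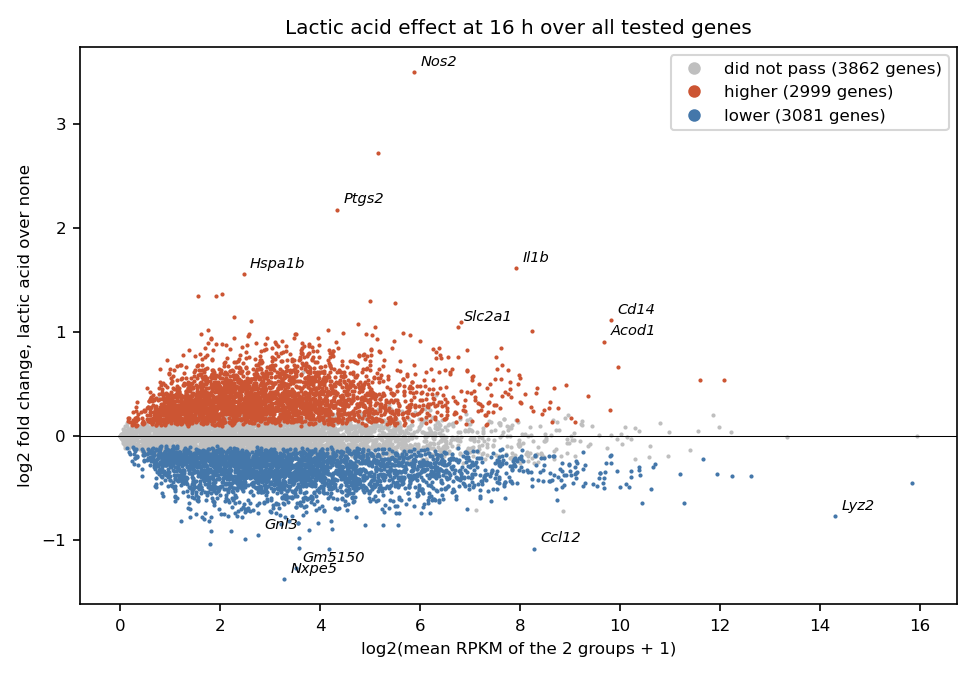
Each point is a tested gene, with its mean level over both groups on the x axis (log2 of RPKM + 1) and the log2 fold change with lactic acid over none at 16 h on the y axis. Red genes (2999) were higher and blue genes (3081) lower at a limma adjusted p under 0.05, and Nos2 at 3.50 stands farthest from 0.

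Nos2, which encodes the inducible nitric oxide synthase of M1 macrophages, rose most. Its level was 7.85, 7.68, 7.40 and 11.1 RPKM in the 4 libraries without lactic acid and 125, 91.7, 114 and 95.0 RPKM in the 4 with it. All treated libraries lay far above all untreated ones, and replicate 4 was the highest of the untreated. The ratio of the means was 12.5, and the log2 fold change was 3.50 (SE 0.13, limma adjusted p = 3.6e-19). In stimulated cells without lactic acid the mean level of Nos2 went from 435 ± 21.4 RPKM at 4 h (SD, n = 4) to 133 ± 11.2 at 8 h and 8.51 ± 1.74 at 16 h. With lactic acid it was 268 ± 22.3 RPKM at 8 h and 107 ± 15.9 at 16 h. The 107 RPKM of the treated cells at 16 h lies below the 133 of untreated cells at 8 h and above their 8.51 at 16 h. The deposited fold changes over unstimulated cells differ in the same direction, at 9.48 for Nos2 with lactic acid and 5.83 without in the authors' deposited table.

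Ptgs2 encodes cyclooxygenase 2, the inducible enzyme of prostaglandin synthesis. It was at 4.75, 5.60, 5.65 and 9.88 RPKM without and at 37.6, 27.4, 34.7 and 28.6 RPKM with lactic acid (2.18, SE 0.15, adjusted p = 1.5e-12). The groups of Ptgs2 were wide apart. Thbs1, which encodes the matrix protein thrombospondin 1, spread more, with 31.7, 19.3, 17.9 and 33.9 RPKM without and 50.3, 88.8, 64.8 and 48.8 RPKM with lactic acid (1.28, SE 0.21, adjusted p = 5.8e-06).

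**Figure D2:**
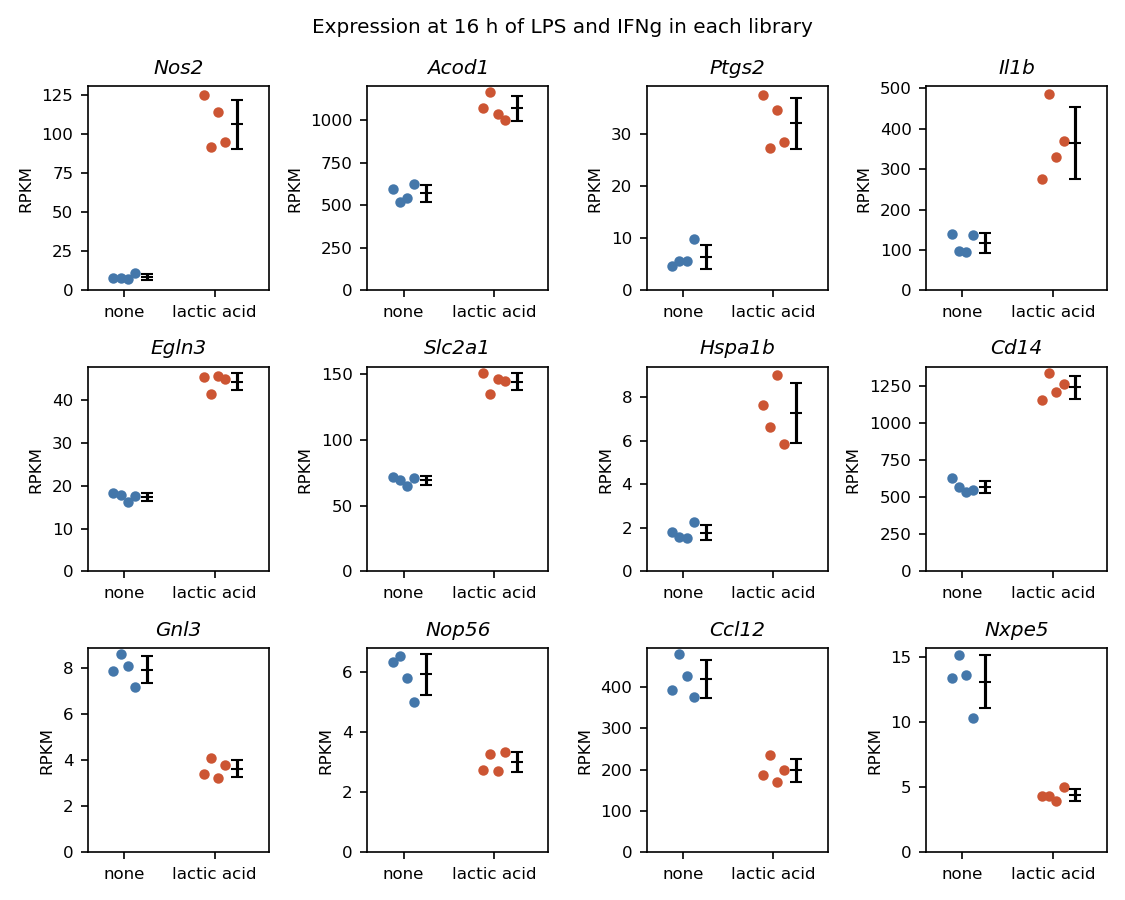
Each dot is the RPKM of one library at 16 h, blue without and red with lactic acid, in 12 genes with y axes that start at 0, and the bar beside each group is the mean ± SD (n = 4). The groups do not overlap in any of the 12 genes, with Nos2 at 7.40 to 11.1 RPKM without and 91.7 to 125 RPKM with lactic acid. The 12 were picked from the named genes, and part of the naming rule asks for groups that do not overlap. Among all tested genes the treated libraries lay wholly above the untreated ones in 28.4% and wholly below in 28.5%.

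Among secreted inflammatory cytokines, 12 of 20 tested members were higher, none was lower, and 8 did not pass. Their median log2 fold change was 0.24, and of all tested genes 30.2% were higher and 31.0% lower. Il1b, the gene of the pyrogenic cytokine interleukin 1 beta, was at 140, 98.0, 96.1 and 138 RPKM without and at 275, 486, 331 and 370 RPKM with lactic acid (1.62, SE 0.22, adjusted p = 4e-07). Its sister gene Il1a rose by 0.82, though its groups touched, with 18.9 RPKM in the highest untreated and 18.6 RPKM in the lowest treated library. Il12b and Il27, whose products steer T cells, rose by 0.75 and 0.62. Il6 rose from a low level, from 0.671 to 0.890 RPKM without to 1.69 to 2.07 RPKM with lactic acid (0.69, SE 0.08). Tnf did not pass (0.02, SE 0.08, adjusted p = 0.85), with 34.9 to 39.4 RPKM without and 34.6 to 43.8 RPKM with lactic acid. The Tnf groups overlapped, while Il1b differed by a ratio of means of 3.10.

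The chemokines went both ways. In the CXC family 5 of 10 members were higher and 3 lower, led by Cxcl3, a ligand that attracts neutrophils (1.08, SE 0.23), and by Cxcl10, which attracts T cells. Cxcl10 was at 39.3, 39.7, 43.7 and 50.6 RPKM without and at 87.8, 89.3, 81.7 and 71.3 RPKM with lactic acid (0.92, SE 0.13, adjusted p = 1.5e-06). In the CC family 3 of 12 were higher and 6 lower, beside 30.2% and 31.0% of all tested genes. Ccl12, a monocyte attractant, fell from 394, 479, 427 and 375 RPKM to 188, 235, 171 and 199 RPKM (-1.08, SE 0.13, adjusted p = 6.9e-08), and its neighbour in the family Ccl7 fell by 0.64. Ccl3, a macrophage inflammatory protein, rose by 0.59. The CC chemokine genes are short, and with the length trend described below removed 5 were higher and 4 lower, and Ccl8 did not pass (-0.19). The call of Ccl8 was also lost without replicate 2 of the untreated group (-0.41) or of the treated group (-0.39).

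Effector and sensor genes of the M1 state were mixed as well. Acod1, whose enzyme makes itaconate, rose from 598, 520, 542 and 624 RPKM to 1071, 1170, 1037 and 1005 RPKM (0.91, SE 0.08, adjusted p = 5.8e-10). Cyba, a subunit of the superoxide-making NADPH oxidase, fell by 0.64, and Ncf1, another of its subunits, rose by 0.35. The inflammasome sensor gene Nlrp3 rose by 0.62, and the adaptor gene Pycard fell by 0.37, a fall that did not pass without replicate 2 of the untreated group (-0.29). Cd14, the LPS co-receptor, was at 629, 569, 538 and 547 RPKM without and at 1160, 1340, 1210 and 1269 RPKM with lactic acid (1.12, SE 0.12, adjusted p = 8.4e-09). Of 18 Toll-like receptors and adaptors, 5 were higher and 3 lower, beside 30.2% and 31.0% of all tested genes.

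Genes that carry and curb the inflammatory signal rose more often than they fell. Of 22 NF-kB subunits and feedback inhibitors 15 were higher and 1 lower (median 0.32), with Bcl3 at 0.69, Nfkbiz at 0.58 and the subunit gene Rela at 0.50. Of 22 STAT, JAK, SOCS and IRF genes 15 were higher and 1 lower (median 0.31). Socs3, a feedback inhibitor of cytokine receptors, went from 73.3 to 86.5 RPKM without to 129 to 143 RPKM with lactic acid (0.76, SE 0.07, adjusted p = 4e-10). Of 27 immediate early genes, which respond to many stimuli within minutes, 19 were higher and none was lower (median 0.46). Ier3, a stress-induced survival gene, rose by 1.10 (SE 0.12), the AP-1 subunit gene Fosl2 by 0.98 (SE 0.09) and the MAP kinase phosphatase genes Dusp1, Dusp2 and Dusp5 by 0.84, 0.83 and 0.81. Against this, 30.2% of all tested genes were higher.

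Of 31 interferon-stimulated genes, 12 were higher and 3 lower (median 0.16), beside 30.2% and 31.0% of all tested genes. Oasl1 rose by 0.81 (SE 0.12), from 51.7 to 65.8 RPKM without to 89.3 to 121 RPKM with lactic acid. Rsad2, the gene of the antiviral enzyme viperin, rose by 0.75 and Ifit2 by 0.62. Of 13 guanylate-binding protein and immunity-related GTPase genes 4 were higher and none was lower, led by Gbp3 (0.62). Their share higher was near the 30.2% of all tested genes. The call of Gbp2 was lost without untreated replicate 1 or treated replicate 1, 2 or 3 (0.16 to 0.21). That of Gbp7 was lost without any one of replicates 1 to 3 of either group (0.34 to 0.39) and with the length trend removed (0.33). MHC class II genes showed 1 of 8 members higher, the inhibitory chain gene H2-Ob (0.56). Of MHC class I presentation genes 3 of 19 were higher and 6 lower, the latter near the 31.0% of all tested genes. Nlrc5, the activator of MHC class I genes, rose by 0.69, and the immunoproteasome gene Psmb9 fell by 0.62.

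Hypoxia targets had the highest median of the lists as deposited, though not with the length trend removed, when it was 0.63 beside 0.83 for mitochondrially encoded transcripts. These genes are switched on by HIF, a transcription factor that prolyl hydroxylases mark for destruction when oxygen is present, and in M1 macrophages HIF is known to drive glycolysis genes also in air. Of 30 targets 18 were higher and 2 lower (median 0.66), beside 30.2% and 31.0% of all tested genes. Egln3 encodes one of those hydroxylases and is itself a target. It was at 18.2, 17.8, 16.1 and 17.7 RPKM without and at 45.3, 41.5, 45.6 and 44.9 RPKM with lactic acid (1.30, SE 0.12, adjusted p = 1.2e-09). Slc2a1, the gene of the glucose transporter GLUT1, was at 71.6, 69.2, 64.6 and 71.2 RPKM without and at 151, 135, 146 and 145 RPKM with lactic acid (1.05, SE 0.09, adjusted p = 4e-10). Both groups were tight and apart in these genes. P4ha2, a collagen prolyl hydroxylase, Ero1l, an oxidase of disulfide formation, and Ndrg1 rose by 0.98, 0.97 and 0.95. Vegfa, the growth factor of blood vessels, rose from 13.0, 12.1, 12.9 and 13.7 RPKM to 26.5, 22.0, 27.4 and 24.8 RPKM (0.91, SE 0.10, adjusted p = 1.6e-08). Hilpda, a lipid droplet gene and a target too, was not called (0.24, adjusted p = 0.089) but passed with the length trend removed (0.47). Ldha, the target that encodes the lactate dehydrogenase subunit which favours lactate, did not pass (0.02, SE 0.09, adjusted p = 0.83), with 922 to 1112 RPKM without and 991 to 1102 RPKM with lactic acid.

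The windows around the start sites of 3 genes that rose are shown because each holds the letters ACGTG, the core of the hypoxia response element. They run from 250 bases before to 50 bases after the start of transcription, on the gene's strand, and come from RefSeq with build GRCm38.p6. Capitals mark matches, on either strand, to ACGTG and to 4 other patterns searched. The E-box pattern was CACGTG, which contains ACGTG. The heat shock pattern was TTCNNGAA and the AP-1-type pattern was TGANTCA. The NF-kB-type pattern was GGGA and CC with any 4 bases between them.
Slc2a1, chr4:119108495-119108794, plus strand: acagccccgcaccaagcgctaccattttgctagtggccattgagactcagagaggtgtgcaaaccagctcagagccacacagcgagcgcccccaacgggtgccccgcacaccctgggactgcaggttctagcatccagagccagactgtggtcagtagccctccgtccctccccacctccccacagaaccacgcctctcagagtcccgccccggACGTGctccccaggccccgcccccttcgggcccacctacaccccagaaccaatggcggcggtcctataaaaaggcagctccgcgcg
Egln3, chr12:54203825-54204124, minus strand: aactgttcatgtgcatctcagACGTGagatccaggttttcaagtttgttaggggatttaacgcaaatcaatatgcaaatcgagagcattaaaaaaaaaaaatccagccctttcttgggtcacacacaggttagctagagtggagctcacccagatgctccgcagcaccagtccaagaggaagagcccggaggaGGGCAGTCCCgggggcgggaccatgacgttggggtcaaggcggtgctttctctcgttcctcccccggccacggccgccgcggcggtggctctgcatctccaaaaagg
Ptgs2, chr1:150099781-150100080, plus strand: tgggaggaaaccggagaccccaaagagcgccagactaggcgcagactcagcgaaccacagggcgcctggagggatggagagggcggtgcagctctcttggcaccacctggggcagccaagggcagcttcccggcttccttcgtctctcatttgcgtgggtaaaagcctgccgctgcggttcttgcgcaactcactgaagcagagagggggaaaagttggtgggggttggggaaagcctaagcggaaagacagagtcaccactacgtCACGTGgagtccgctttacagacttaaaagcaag
Slc2a1 holds 1 match to ACGTG at bases 215 to 219 of the window, and Egln3 1 match at bases 22 to 26 and 1 match to the NF-kB-type pattern at bases 194 to 203. Ptgs2 holds the E-box at bases 267 to 272, which contains ACGTG on both strands. A match is a description of the letters and not a bound site. ACGTG lay in 26.2% of the 10198 promoter windows of tested genes, in 24.3% of the 678 windows of genes higher by at least 0.5 and in 29.7% of the 344 windows of genes lower by at least 0.5. For the NF-kB-type pattern these shares were 26.2%, 34.2% and 21.5%, and for the E-box 10.3%, 9.0% and 15.4%. For the AP-1-type pattern they were 5.26%, 5.75% and 4.65%, and for the heat shock pattern 7.13%, 5.31% and 6.69%. The shares over all 32851 windows of the RefSeq table were 19.6% for ACGTG, 20.7% for the NF-kB-type pattern, 7.15% for the E-box, 7.81% for the AP-1-type pattern and 8.52% for the heat shock pattern.

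The same windows can be read against the marks of histone H3 lysine 18 that the series measured in cells without lactic acid. Peaks of lactylation (H3K18la) and acetylation (H3K18ac) came from 1 library per mark in unstimulated (M0) cells and in M1 cells at 24 h, so they describe chromatin before or without the treatment and have no replicate. The Slc2a1 and Ptgs2 windows each overlapped a peak of both marks in both states. The fold enrichment of the H3K18la peak, a value of the authors' peak caller, was 9.34 in M0 and 6.25 in M1 at Slc2a1 and 3.64 and 6.13 at Ptgs2. The Egln3 window overlapped only an H3K18ac peak of M0, with a fold enrichment of 3.14. Over 2423 genes that were higher with lactic acid and have a window in the table, 68.3% overlapped an M1 H3K18la peak by at least 1 base, against 66.7% of 2467 genes that were lower and 65.8% of all 7997 tested genes with a window. For H3K18ac in M1 the shares were 90.4%, 90.9% and 89.4%. An M1 H3K18la peak was overlapped by 69.1% of 512 genes higher by at least 0.5 and by 42.9% of 14 genes higher at least 2-fold.

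Of 23 glycolysis genes 13 were higher and 2 lower (median 0.18), beside 30.2% and 31.0% of all tested genes. The largest rises were at the entry of the pathway. Slc2a1 takes up glucose, and the hexokinase genes Hk1 and Hk2, which phosphorylate it, rose by 0.98 (SE 0.06) and 0.82 (SE 0.08). Pfkfb3, whose product activates phosphofructokinase, rose by 0.99 (SE 0.08), from 12.0 to 15.7 RPKM without to 26.8 to 30.9 RPKM with lactic acid, and Pfkp, a phosphofructokinase gene, by 0.62. Of 18 genes of lactate, proton and bicarbonate handling 7 were higher and 3 lower. The lactate exporter gene Slc16a3 rose from 101 to 111 RPKM to 153 to 163 RPKM (0.58, SE 0.09, adjusted p = 4e-06) and the hydroxy acid receptor gene Hcar2 by 0.79. The transporter gene Slc16a7, which favours uptake of lactate and pyruvate, fell by 0.59, and Ldhb, the lactate dehydrogenase subunit that favours pyruvate, fell by 0.51.

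Genes of the mitochondria parted by genome. Among nuclear genes of the respiratory chain 22 of 34 were lower and none higher (median -0.28), beside 31.0% and 30.2% of all tested genes. The complex I subunit genes Ndufb8 and Ndufv2 were at -0.62 and -0.42. Genes of the respiratory chain list are short (median 1959 bases), and of all genes of up to 2124 bases 49.4% were lower. Of 32 genes of the TCA cycle and pyruvate oxidation 18 were lower and 4 higher (median -0.19), and Idh3a, Fh1 and Suclg1 fell by 0.52, 0.47 and 0.44. Of 12 transcripts of the mitochondrial genome 8 were higher and none lower (median 0.62), with mt-Co1 at 695 to 826 RPKM without and 1153 to 1383 RPKM with lactic acid (0.67, SE 0.12, adjusted p = 1.7e-05). Mitochondrial transcripts are also read as a sign of RNA quality, and their part in the other results was not tested. With the length trend removed 10 mitochondrial transcripts were higher, and the respiratory chain had 15 members lower and 4 higher (median -0.13). The list of the TCA cycle and pyruvate oxidation then had 16 lower and 6 higher (median -0.11).

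**Figure D3:**
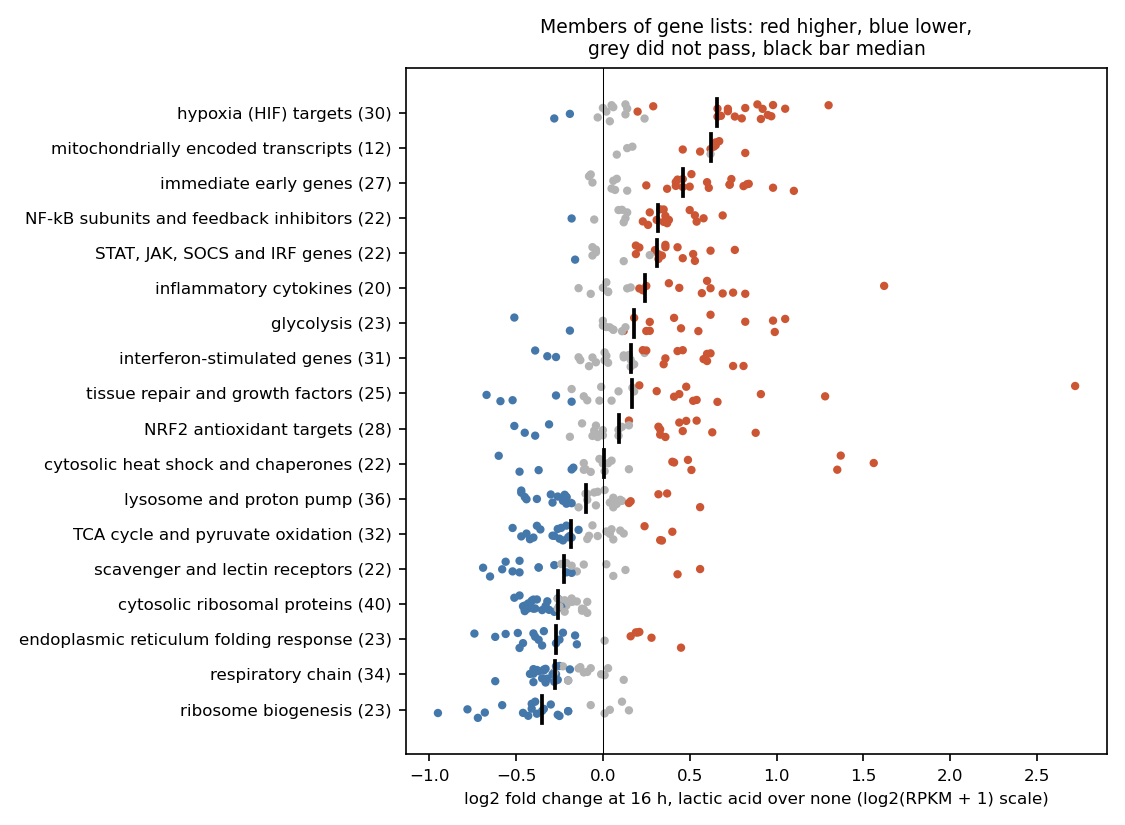
Each dot is a tested gene of the list named on the y axis (number of tested members in brackets), placed by its log2 fold change with lactic acid over none at 16 h, with red higher, blue lower, grey not passing and a black bar at the median. Of the 18 lists drawn, hypoxia targets have the highest median as deposited (0.66, and 0.63 with the length trend removed, when mitochondrial transcripts have 0.83) and ribosome biogenesis the lowest (-0.35).

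Of 23 ribosome biogenesis genes, 18 were lower and none was higher (median -0.35), beside 31.0% and 30.2% of all tested genes. These genes build and process ribosomal RNA in the nucleolus. Gnl3, the gene of nucleostemin, was at 7.87, 8.62, 8.10 and 7.19 RPKM without and at 3.43, 4.11, 3.24 and 3.81 RPKM with lactic acid (-0.95, SE 0.10, adjusted p = 7.4e-09). Nop56, a core protein of the particles that methylate ribosomal RNA, was at 6.31, 6.52, 5.79 and 4.99 RPKM without and at 2.72, 3.27, 2.69 and 3.33 RPKM with lactic acid (-0.78, SE 0.08). Rrp9, Nop16 and Mybbp1a fell by 0.72, 0.68 and 0.58. With the length trend removed 17 members were lower and none higher. Of 40 cytosolic ribosomal protein genes 24 were lower and none higher, by a median of -0.26, with Rps3 at -0.51 and Rplp0 at -0.46. These short genes depended on the setting, with 19 lower and 3 higher once the length trend was removed and 15 lower without replicate 2 of the untreated group. Ribosomal protein genes have many processed pseudogenes, so their reads may be divided among copies.

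Of 23 folding genes of the endoplasmic reticulum 16 were lower and 6 higher (median -0.27), or 14 and 3 with the length trend removed. The chaperone gene Hspa5 (BiP) went from 460 to 594 RPKM to 348 to 411 RPKM (-0.49, SE 0.07, adjusted p = 2.4e-06), and Vimp (Selenos), Sdf2l1 and Manf fell by 0.74, 0.62 and 0.56. Of 22 cytosolic heat shock genes 7 were higher and 5 lower, near the 30.2% and 31.0% of all tested genes. The inducible Hsp70 genes Hspa1b and Hspa1a rose by 1.56 (SE 0.09) and 1.37 (SE 0.08), and Hspb1, a small heat shock protein gene, by 1.35 (SE 0.10). Hspa1b was at 1.79, 1.58, 1.52 and 2.26 RPKM without and at 7.63, 6.63, 9.02 and 5.85 RPKM with lactic acid. Hspa1a and Hspa1b are nearly identical copies, so the division of reads between them is uncertain. Hspe1, a mitochondrial co-chaperone gene, fell by 0.60.

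Repair genes and alternative markers gave no single direction. Of 25 tissue repair and growth factor genes 11 were higher and 5 lower, with Thbs1, Vegfa and Pdgfb (0.66) among the risers and Plau, the urokinase gene, falling from 53.1 to 55.9 RPKM to 32.6 to 35.6 RPKM (-0.67, SE 0.11, adjusted p = 4.5e-06). Of 22 alternative (M2) activation markers 4 were higher and 6 lower, beside 30.2% and 31.0% of all tested genes. Arg1, the arginase gene that competes with Nos2 for arginine, was at 461, 502, 399 and 490 RPKM without and at 517, 557, 479 and 570 RPKM with lactic acid. The Arg1 groups overlapped, and the difference did not pass (0.20, SE 0.22, adjusted p = 0.44). The transglutaminase gene Tgm2 rose by 0.70, and the lipid receptor gene Trem2 and the mannose receptor gene Mrc1 fell by 0.65 and 0.52. Of 22 scavenger and lectin receptors 12 were lower and 2 higher, and of 17 Fc receptor and complement genes 9 and 3, with C1qa at -0.61 and C3 rising by 0.76.

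Of 28 NRF2 antioxidant targets 11 were higher and 4 lower (median 0.09), with the cystine transporter gene Slc7a11 at 0.88, and the heme oxygenase gene Hmox1 at 3289, 3325, 3496 and 3914 RPKM without and 5750, 4509, 5109 and 5076 RPKM with lactic acid (0.54, SE 0.11). Of 27 histone acyl writers, erasers and readers 14 were higher and 6 lower. Ep300, an acyltransferase gene, rose by 0.58, while Hdac1 fell by 0.53. Of 36 lysosome and proton pump genes 15 were lower and 5 higher, with Ctsh at -0.47 and the pump subunit Atp6v1c1 at -0.45, and of 18 autophagy genes 9 and 6. Of 41 cell cycle genes 10 were higher and 10 lower, with the replication gene Mcm5 at -0.81 and the arrest gene Cdkn1a at 0.49. Of 33 sterol and fatty acid synthesis genes 8 were lower and 5 higher, led by Insig1 (-0.69). Of 20 macrophage identity genes 4 were higher and 7 lower. Beside these lists, 30.2% of all tested genes were higher and 31.0% lower. The cell cycle and sterol lists lay below both shares. The lysozyme gene Lyz2 went from 26134, 29669, 26907 and 19128 RPKM to 12971, 16162, 13319 and 17049 RPKM (-0.77, SE 0.13, adjusted p = 1e-05), and the LXR gene Nr1h3 fell by 0.83. Actb, often used as a reference, did not pass (0.13, SE 0.08, adjusted p = 0.15), but did when libraries were scaled to their reads in the table (0.17) and with the length trend removed (0.21).

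Nxpe5 and Gm5150, which are in none of the lists, fell most among genes whose mean reached 3 on the log2 scale. Nxpe5 was at 13.4, 15.1, 13.6 and 10.3 RPKM without and at 4.30, 4.32, 3.97 and 5.05 RPKM with lactic acid (-1.37, SE 0.10, adjusted p = 9.1e-12). Gm5150 was at 14.9, 16.1, 15.1 and 14.3 RPKM without and at 6.01, 5.77, 4.88 and 6.13 RPKM with lactic acid (-1.27, SE 0.08, adjusted p = 3.5e-13). Lsm7, a subunit of the Lsm rings that bind RNA, and Timm10 and Tomm5, of the machinery that imports proteins into mitochondria, fell by 1.08, 1.07 and 0.85. The calprotectin gene S100a8, which marks neutrophils and is also made by stimulated macrophages, fell by 0.89, from 16.9 to 29.9 RPKM to 10.1 to 12.8 RPKM. Of the 6 tested neutrophil markers 1 was higher and 3 lower, beside 30.2% and 31.0% of all tested genes. The part of neutrophils in these results was not tested. Camp fell from 1.42 to 2.27 RPKM to 0.707 to 1.71 RPKM (-0.32), a call lost without treated replicate 3 (-0.17) and with the length trend removed (-0.03), and Csf3r rose from 12.0 to 15.3 RPKM to 14.6 to 17.1 RPKM. In RNA from whole cultures, fewer cells of a type and less RNA per cell cannot be told apart. Lat2, a signalling adaptor gene, and Rgs2, a brake on G protein signalling, fell by 0.85 and 0.84. The nucleotide kinase gene Nme4 fell by 0.98, Pdrg1 by 0.90 and Wfdc21 by 0.85. Ets2, a transcription factor gene, and Olfm1 were among the top risers, at 1.05 and 1.02.

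Gene length moved with the effect. Lengths were recovered from the RPKM values, and within a library the deviation of each gene from its mean was regressed on log2 length. The slope was -0.106 to 0.006 in the libraries without lactic acid and 0.024 to 0.077 in those with it, so that longer genes read higher with lactic acid, and replicate 4 without lactic acid (0.006) lay nearest to the treated libraries in this too. With genes divided by length into 5 equal bins, 10.6% were higher and 49.4% lower in the shortest bin (up to 2124 bases), and in the longest bin (from 6618 bases) 49.7% were higher and 12.9% lower. With the trend removed the shares were 28.0% and 27.5% in the shortest and 32.8% and 31.6% in the longest bin. After that step 3087 genes (31.1%) were higher and 3013 (30.3%) lower, which held 2533 of the 2999 higher genes and 2446 of the 3081 lower ones, and 1 gene called higher became lower. Nos2 (3.48), Ptgs2 (2.15), Il1b (1.76), Slc2a1 (1.07) and Gnl3 (-0.80) kept their calls. Saa3, the acute-phase gene, was lower as deposited (-0.45) and did not pass with the trend removed (-0.12), nor without untreated replicate 2 or 3 or treated replicate 3 (-0.41 to -0.35).

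**Figure D4:**
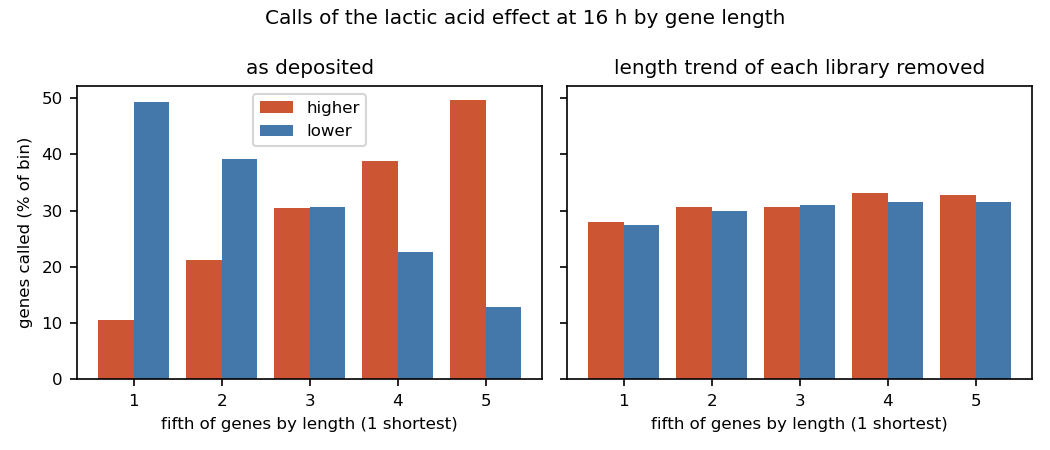
Bars give the share of genes called higher (red) or lower (blue) with lactic acid at 16 h, in percent of the genes in each of 5 equal bins by length, on the left as deposited and on the right with each library's length trend removed. The share lower falls from 49.4% to 12.9% from the shortest to the longest bin on the left, and runs from 27.5% to 31.6% on the right.

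The effect at 16 h can be set against that at 8 h, 4 h after lactic acid was added, in a model with the difference of the effects. Of the tested genes 1058 (10.6%) had a more positive effect at 16 h and 1011 (10.2%) a more negative one. When only the libraries of these groups were fitted the counts were 1626 and 1589. Over 9942 genes the log2 fold changes at the 2 times, which share no library, had a Pearson r of 0.75, given as a description. Of the 2999 genes higher at 16 h 74.7% were also higher at 8 h, where 32.1% of all tested genes were, and of the 3081 lower genes 75.2% were also lower, where 36.0% were.

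Hypoxia targets had the opposite balance at the earlier time. At 8 h 3 of 30 were higher and 15 lower with lactic acid, at 16 h 18 and 2, and 25 had a more positive effect at 16 h and 1 a more negative one. Ndrg1 fell by 0.69 at 8 h and rose by 0.95 at 16 h (difference 1.64, adjusted p = 1.7e-11), with 12.8 ± 0.570 RPKM without and 7.55 ± 0.545 RPKM with lactic acid at 8 h and 4.20 ± 0.355 and 9.03 ± 0.759 RPKM at 16 h (SD, n = 4). Egln3 was at -0.27 at 8 h and did not pass (adjusted p = 0.0502), and its difference was 1.57 (adjusted p = 2e-07). Nos2 rose by 1.01 at 8 h and by 3.50 at 16 h (difference 2.50, adjusted p = 4e-11). Il1b did not pass at 8 h (-0.01), where it stood at 1058 ± 109 RPKM without and 1046 ± 17.0 RPKM with lactic acid, and the difference to 16 h was 1.63 (adjusted p = 0.00039). Arg1 fell by 1.37 at 8 h and did not pass at 16 h (difference 1.57, adjusted p = 0.00055). Of the 31 interferon-stimulated genes 3 were higher and 19 lower at 8 h, against 12 and 3 at 16 h. Of the 27 immediate early genes 7 were higher and 11 lower at 8 h, near the shares of all tested genes, against 19 and none at 16 h.

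Ribosome biogenesis moved the other way, with 8 of 23 members higher and 4 lower at 8 h and none and 18 at 16 h. Of all tested genes 32.1% were higher and 36.0% lower at 8 h, so the share of members higher then was near that of all genes. A more negative effect at 16 h was found in 21 members, beside 10.2% of all tested genes. Mybbp1a, which acts in ribosomal RNA synthesis, rose by 0.17 at 8 h and fell by 0.58 at 16 h (difference -0.75, adjusted p = 5.1e-06). Among the other genes with the most negative difference, Plau and Nceh1, a cholesterol ester hydrolase gene, were at 0.11 and 0.27 at 8 h and fell by 0.67 and 0.50 at 16 h. Mrc1 rose by 0.27 at 8 h and fell by 0.52 at 16 h. Impdh2, of guanine nucleotide synthesis, was at 0.17 at 8 h, where it did not pass, and at -0.56 at 16 h. Scand1 had a difference of 1.79, but its effect at 16 h did not pass and rested on replicate 3 of the treated group (18.8 RPKM against 5.77 to 7.59 RPKM in the others), without which it was -0.13.

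**Figure D5:**
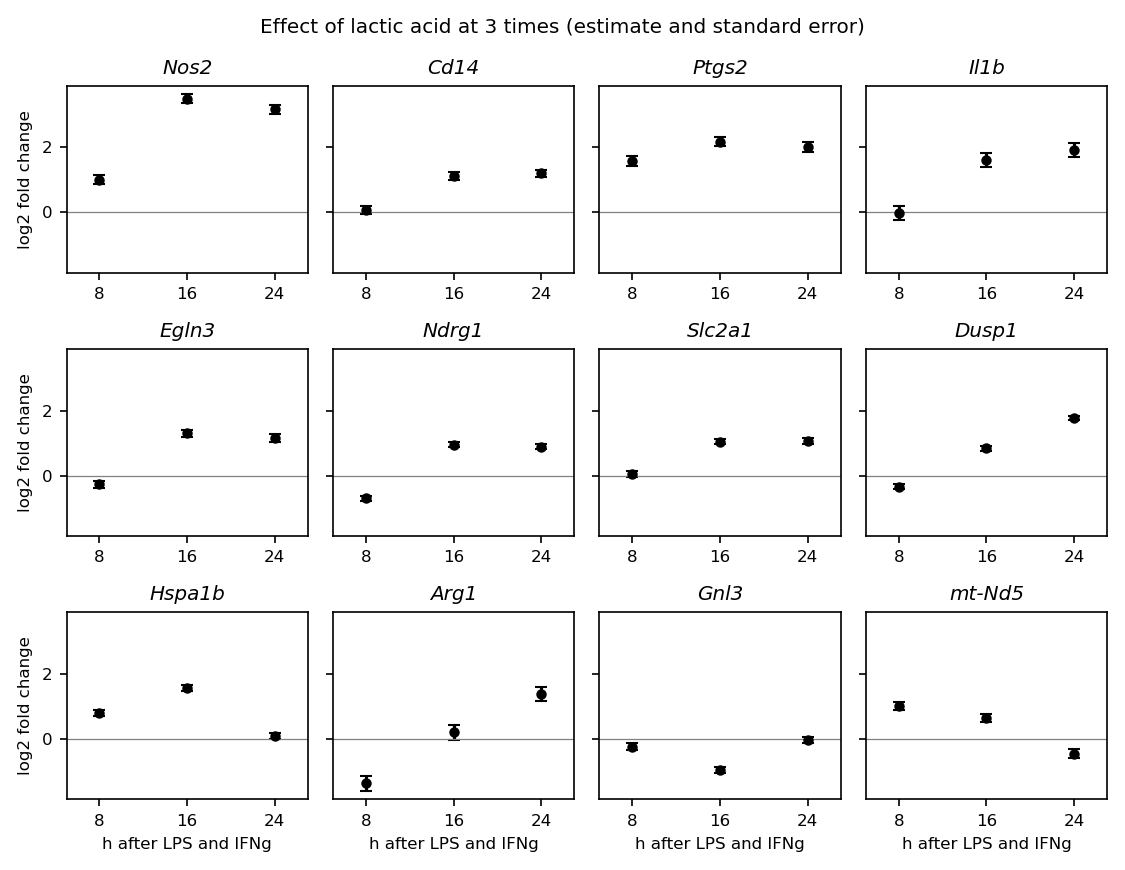
Points give the log2 fold change with lactic acid over none in 12 genes at 8, 16 and 24 h after LPS and IFNg on 1 scale, with the standard error as bars. Nos2, Egln3 and Slc2a1 lie higher at 16 h than at 8 h, Hspa1b is at 1.56 at 16 h and 0.09 at 24 h, and mt-Nd5 goes from 0.65 at 16 h to -0.45 at 24 h.

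Against 24 h, after 20 h in lactic acid, 2313 genes (23.3%) had a more positive effect at 16 h and 2671 (26.9%) a more negative one. These counts depended on the scaling. With every library scaled to its reads in the table they were 4119 (41.4%) and 1147 (11.5%), and the median difference over all genes moved from -0.01 to 0.16. At 24 h itself that scaling turned 2532 genes higher (25.5%) and 2153 lower (21.7%) into 1035 (10.4%) and 4617 (46.4%). When only the libraries at 24 h were fitted, 1256 genes (12.6%) were higher and 1001 (10.1%) lower. Of the libraries at 24 h, replicate 4 without and replicate 1 with lactic acid stood apart, with length slopes of -0.211 and -0.221. Left out together, they gave 2453 genes (24.7%) with a more positive and 2952 (29.7%) with a more negative effect at 16 h.

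Nos2, Ptgs2, Il1b, Egln3, Slc2a1 and Vegfa had differences between -0.31 and 0.33 that did not pass. With the scaling to reads the difference of Nos2 passed (0.59, adjusted p = 0.0076). Vegfa with lactic acid was at 25.2 ± 2.38 RPKM at 16 h and 75.8 ± 2.21 RPKM at 24 h, beside 12.9 ± 0.623 and 39.4 ± 9.48 RPKM without.

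The mitochondrial transcripts stood among the genes with the most positive difference to 24 h. All 12 tested had a more positive effect at 16 h, also with the scaling to reads, and 11 without the pair of libraries that stood apart. Among all tested genes these shares were 23.3%, 41.4% with that scaling and 24.7% without the pair. The genes mt-Nd5, mt-Nd6 and mt-Nd2 rose by 0.65, 0.64 and 0.62 at 16 h and fell by 0.45, 0.78 and 0.68 at 24 h, and mt-Atp8 did not pass at 16 h and fell by 1.26 at 24 h. Klf2, a transcription factor gene, rose by 0.61 at 16 h and fell by 0.59 at 24 h (difference 1.20, adjusted p = 2.2e-06), and Kctd12 rose by 0.67 and fell by 0.92. Hspa1b rose by 1.56 at 16 h and did not pass at 24 h (0.09; difference adjusted p = 5.8e-09). Arg1 had the opposite order, with no call at 16 h and a rise of 1.39 at 24 h (difference -1.19, adjusted p = 0.0023), when it stood at 743 ± 181 RPKM without and 1955 ± 538 RPKM with lactic acid.

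Of the 26 genes of the ATF4 amino acid stress response tested, 7 were higher and 6 lower at 16 h. Among all tested genes the shares were 30.2% and 31.0%. Against 24 h 12 had a more negative and 3 a more positive effect, the same numbers without the pair of libraries, and 6 and 4 with the scaling to reads. Of all tested genes 26.9% had a more negative and 23.3% a more positive effect. These shares were 29.7% and 24.7% without the pair of libraries, and 11.5% and 41.4% with the scaling to reads. The transcription factor genes Atf4 and Ddit3 were at -0.37 and -0.13 at 16 h, where Ddit3 did not pass, and rose by 0.91 and 1.15 at 24 h. Outside that list, Gdf15, a stress-induced cytokine gene, did not pass at 16 h (0.18) and rose by 1.82 at 24 h, and the hypoxia target Hilpda rose by 1.78 at 24 h. Ifrd1, which is in no list, fell by 0.30 at 16 h and rose by 1.05 at 24 h.

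Of the 40 cytosolic ribosomal protein genes, 24 lower at 16 h, 35 were higher and none was lower at 24 h, and 19 and 1 with the scaling to reads. For 39 of them the effect was more negative at 16 h, for 32 with that scaling. Of the 34 respiratory chain genes, 22 lower at 16 h, 13 were higher at 24 h and 1 was lower. With the scaling to reads 2 were higher and 9 lower. Beside this, 25.5% of all tested genes rose at 24 h and 21.7% fell, or 10.4% and 46.4% with that scaling. The scaling thus moved the balance of all tested genes the same way. The effect on the respiratory chain genes was more negative at 16 h in 25, in 14 with that scaling and in 30 without the pair of libraries. With the length trend removed it was more negative in 19 and more positive in 2. A more negative effect at 16 h was found in 26.9% of all tested genes. That share was 11.5% with the scaling to reads and 29.7% without the pair. Of the 23 ribosome biogenesis genes 18 were lower at 16 h and 17 at 24 h, where the scaling to reads gave 21, beside 46.4% of all tested genes.

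The effect was also set beside changes over time that share no library with it. Over 9942 genes it had a Pearson r of -0.10 with the change from 8 to 24 h in stimulated cells without lactic acid and of 0.02 with the change from 0 to 4 h, given as descriptions. Of the genes higher with lactic acid 38.6% rose and 38.8% fell from 8 to 24 h without it, and of the genes lower with it 39.3% rose and 35.7% fell, beside 38.9% and 37.6% of all tested genes. From 0 to 4 h 50.2% of the higher genes fell and 36.8% rose, and 50.6% of the lower genes rose and 33.0% fell, beside 42.5% of all tested genes that rose and 42.7% that fell. Between 8 and 16 h without lactic acid, a step not tested here, mean levels went from 119 to 6.47 RPKM for Ptgs2, from 1058 to 118 RPKM for Il1b and from 2773 to 571 RPKM for Acod1. Cd14 was at 1602 ± 94.9 RPKM at 8 h and 571 ± 41.3 RPKM at 16 h without lactic acid and at 1245 ± 77.7 RPKM at 16 h with it (SD, n = 4).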

How the data were processed

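RNA libraries were made with a stranded mRNA kit, per the labels' protocols. The deposited table gives RPKM per gene and library, with the authors' log2 fold changes over 0 h, a mean log2 CPM, p-values and FDRs, per the file headers. The submitters' processing notes name HISAT2 2.1.0, featureCounts 1.5.0-p1 and MACS2 2.2.1, with builds mm10 and GRCm38, and assign them no role. The authors listed mostly genes that pass their own test (19 have an FDR of at least 0.05), so each share of genes given here refers to such genes. In the deposited peak lists, column 7 holds each peak's fold enrichment, a ratio over the peak caller's background. How peaks were thresholded is not given in the sources used here.

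A gene was tested if 4 or more of the 32 libraries reached 1 RPKM. The test was limma-trend (limma 3.58.1, R 4.3.3) on log2(RPKM + 1), with 1 mean per group over all 8 RNA groups of 4 libraries (24 residual degrees of freedom) and Benjamini-Hochberg adjustment over 9942 genes. Whole reads and gene lengths were recovered from the RPKM steps: 99.99% of values came within 0.05 reads of a whole number (10.0% by chance). They gave the depth and the length trend, and the recovery and the test were tested on simulated data. The planned count tests on the recovered reads were not run, and limma-voom was run in their place.

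The members and the 51 gene lists were chosen with earlier results of these data known. Genes were named by rule. It took Actb, Arg1, Cxcl10, Il1b, Il6, Ldha, Nos2, Tnf and Vegfa. From each list it took the called members that changed most, 5 at most, and the most expressed member where fewer than 2 were called. It added the 12 higher and 12 lower genes with the largest change among genes of a mean of at least 3 log2 units whose groups do not overlap, and the 6 higher and 6 lower of each difference of effects. The windows of Egln3, Slc2a1 and Ptgs2 were chosen after their values were seen. Promoter windows were matched by gene symbol. Alternatives changed the pseudocount, the expression minimum, the scaling, the length trend, the libraries fitted, a replicate block and the test. Leaving out libraries of 8 h and 24 h, alone or as a pair, was chosen after seeing the data. Some genes that the rule names are not reported here.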

Additional observations from a re-analysis of the deposited data

Results flagged for a closer look

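In 60 groups of 4 libraries (30 genes, 2 groups), 1 library stood apart from the other 3 by more than Dixon's 95% limit in 4 cases, and chance gives this in about 1 of 20 groups. Nos2 was at 11.1 RPKM in replicate 4 without lactic acid and at 7.40 to 7.85 RPKM in the others. With lactic acid, Tnf was at 43.8 RPKM in replicate 2, Egln3 at 41.5 RPKM in replicate 2 and S100a8 at 10.1 RPKM in replicate 3.

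The effect at 16 h differed from that at 8 h, by a test of the difference, in 17 of the 30 genes, which include genes picked for a large change at 16 h. Over all tested genes 10.6% had a more positive and 10.2% a more negative effect. The differences were 2.50 for Nos2, 1.63 for Il1b, 1.57 for both Arg1 and Egln3, 1.27 for Thbs1, 1.04 for Cd14, 0.99 for Slc2a1, 0.77 for Vegfa, 0.67 for Olfm1, 0.60 for Ptgs2, 0.53 for Cxcl10, 0.52 for Ier3 and 0.41 for Ldha. They were -1.05 for Nxpe5, -0.72 for Ccl12, -0.54 for Rgs2 and -0.44 for Gm5150.

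The effect at 16 h differed from that at 24 h in 16 of the 30 genes, beside 23.3% of all tested genes with a more positive and 26.9% with a more negative effect. The differences were 0.55 for Olfm1, 0.47 for Cxcl10 and 0.46 for Actb. They were -1.19 for Arg1, -0.98 for Ccl12, -0.84 for Gm5150, -0.82 for Lat2, -0.76 for S100a8, -0.73 for both Timm10 and Wfdc21, -0.68 for Tomm5, -0.64 for both Ldha and Lsm7, -0.56 for Tnf, -0.55 for Nme4 and -0.44 for Pdrg1.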

How the results depend on the processing

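With the exception of the 2-fold minimum, which left 20 genes higher and 6 lower, each alternative kept the counts of genes higher and lower with lactic acid at 16 h within 1.5 times of 2999 and 3081. Leaving out 1 library of 16 h at a time gave 2675 to 3088 higher and 2620 to 3158 lower. Leaving out 1 library of 8 h or 24 h, which enters only through the shared spread, was chosen after seeing the data and gave 2977 to 3204 higher and 3049 to 3339 lower, the most without replicate 4 of 24 h. With limma-voom on the whole reads, an alternative chosen after seeing the data, the counts were 3044 and 3139, of which 2991 and 3068 were the same genes. The counts of differences between effects moved more. Against 8 h they were 1626 higher and 1589 lower with only the libraries of the groups compared, and 648 lower with an expression minimum of 5 RPKM. Against 24 h they were 1479 higher with that minimum, and 4119 higher and 1147 lower when libraries were scaled to their reads in the table. The cause was not tested, beyond the smaller number of genes that the higher minimum leaves. Without 1 library of the groups compared at a time, the counts against 8 h were 860 to 1026 higher and 775 to 1011 lower, and against 24 h 1933 to 2643 higher and 2283 to 3123 lower. Without replicate 4 of 24 h, the counts against 8 h were 1374 and 1368, and without it and replicate 1 of 24 h with lactic acid 1581 and 1538. Of 238 named genes called at 16 h, 220 kept the call and the direction under each alternative that tested them and 18 lost the call under at least 1. The minimum of 5 RPKM tested 225 of them, and the other alternatives all. Direction turned in Eprs (-0.04), Ctss (0.11) and Ddit3 (0.03) with the length trend removed, with or without the block. Without single libraries it turned in Tnf (-0.06 to 0.05), Ldha (-0.03 to 0.06, and -0.00 without 1 library), Scand1 (-0.13 to 0.38) and Gdf15 (-0.01 to 0.40), none of which passed with all libraries. Same-numbered libraries of the 2 groups did not deviate together (correlations of 0.13, 0.0529, -0.116 and -0.588). With 4 libraries per group this cannot exclude that the numbers pair libraries, which the labels do not state. With the replicate block 2990 genes were higher and 3071 lower. The planned count tests on the recovered reads were not run, and limma-voom stands in their place. Depth at 16 h gave no limit beyond the expression minimum, as each of those libraries holds over 61 M reads in the genes of the table. Over all RNA libraries the lowest depth was 60.6 M, in replicate 1 with lactic acid at 24 h.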
